A study of Homo sapiens with 6 samples.

Results

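Kinesins are the motor proteins that walk along microtubules, and their mRNAs were counted in LX-2, an immortalised line derived from human hepatic stellate cells, which deposit matrix in the fibrotic liver. The members were all protein-coding genes of the GENCODE annotation whose symbol starts with KIF and a digit or with KIFC and a digit, 42 genes in all. Of these, 40 had a row in the count table of 32750 genes, and the mRNAs of KIF2B and KIF19 were not analysed here. The rule on symbols leaves out kinesins with other names, such as CENPE, which is counted below among the partners of mitotic kinesins. The comparison was between 3 libraries from cells labelled as transfected with an siRNA against ATP6AP1, labelled a transient knockdown, and 3 libraries from cells given a non-targeting siRNA, labelled wild type; the series title calls the cells activated. ATP6AP1 encodes a protein that accompanies the V-ATPase, the pump that acidifies lysosomes, and the study asks which transcripts change when it is depleted. The submitters call the libraries of a group independent biological replicates, all come from a single line, and no batch is named.

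Each kinesin carries a motor domain that uses ATP to step along a microtubule or to pull subunits off its end. One set of kinesins is made for cell division: these motors build the spindle, move and align the chromosomes and close the midbody, and their genes are mostly active in the late cell cycle. Another set carries cargo such as mitochondria, endosomes, lysosomes and secretory vesicles through cells at any stage. A remaining set works in cilia, trims microtubules or has lost motor activity.

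The siRNA target itself was not lower. ATP6AP1 stood at 144, 146 and 139.9 CPM (counts relative to library size, with TMM composition factors) in the libraries labelled ATP6AP1 siRNA, and at 116, 117 and 129 CPM in the control libraries. The difference was 1.19-fold (edgeR quasi-likelihood test with Benjamini-Hochberg adjustment over all tested genes, adjusted p = 0.00425), so each direction below is that of the labelled libraries and not of a measured depletion. Library totals ran from 15644464 to 17880546 counts in the libraries labelled ATP6AP1 siRNA and from 17700222 to 19656533 in the control libraries. Kinesins took 0.324 to 0.331% of the counts in the libraries labelled ATP6AP1 siRNA and 0.281 to 0.300% in the control libraries. All 12 stellate cell markers had counts in each library, and the mean of each was lower in the libraries labelled ATP6AP1 siRNA. They summed to 4350 to 4763 CPM in the libraries labelled ATP6AP1 siRNA and to 7285 to 7854 CPM in the control libraries, with the filament gene DES at 0.197 CPM on average in the labelled libraries and 0.414 CPM in the control libraries. Hepatocyte markers, of which nearly all was SERPINA1, summed to 4.77 to 5.96 CPM in the labelled libraries and 7.54 to 8.72 CPM in the control libraries, where ALB was at 0. Macrophage markers, mostly CD68, summed to 58.1 to 63.5 CPM in the labelled libraries, with MARCO at 0, and to 60.2 to 72.5 CPM in the control libraries. Endothelial markers summed to 18.4 to 22.5 CPM in the labelled libraries and 17.3 to 19.0 CPM in the control libraries, and the main members went opposite ways: KDR averaged 6.82 CPM in the labelled libraries and 2.40 CPM in the control libraries (edgeR adjusted p = 1.76e-05), and TEK 12.2 CPM in the labelled libraries and 14.8 CPM in the control libraries (edgeR adjusted p = 0.0458). Cholangiocyte markers, mostly SOX9, came to 32.3 to 40.2 CPM in the labelled libraries and 30.4 to 35.7 CPM in the control libraries, and lymphocyte markers to at most 0.788 CPM in the labelled libraries and 1.29 CPM in the control libraries. The part of these marker differences in the kinesin values was not tested.

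Of the 40 kinesins in the table, 35 passed the filter on low counts and were tested. The other 5 (KIF1A, KIF6, KIF12, KIF25 and KIF26B) had between 0 and 7 counts in any library, too few to show a difference at this depth. Among the 35, 14 rose (40.0%) and 10 fell (28.6%) at an adjusted p under 0.05, against 26.7% raised and 26.6% lowered among all 15372 genes tested. The groups' values did not overlap in 24 of the 35, against 59.5% of all tested genes. The lowered share was close to that of all genes and the raised share was larger, and the roles went different ways. Mitotic kinesins had 8 of 13 members raised and 0 lowered (0 lowered also at an unadjusted p under 0.05 and in DESeq2 and limma-voom), with a median log2 fold change of 0.27. The 0 depends on the placement of KIF2A, which acts both in mitosis and outside it. KIF2A was listed with the remaining set and was lowered (log2 fold change -0.42, edgeR adjusted p = 0.000107). Transport kinesins had 2 of 16 raised and 9 lowered, with a median of -0.27, where the median of all tested genes was -0.0043. The number of lowered transport kinesins was less stable: 6 with DESeq2, 8 with limma-voom and 5 to 9 over all alternatives. Scaled by library size without composition factors, the median of all genes moved to 0.13, those of the mitotic and transport kinesins to 0.41 and -0.13, and the calls among all kinesins to 17 raised and 6 lowered, against 5618 raised and 2733 lowered over all genes.

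**Figure D1:**
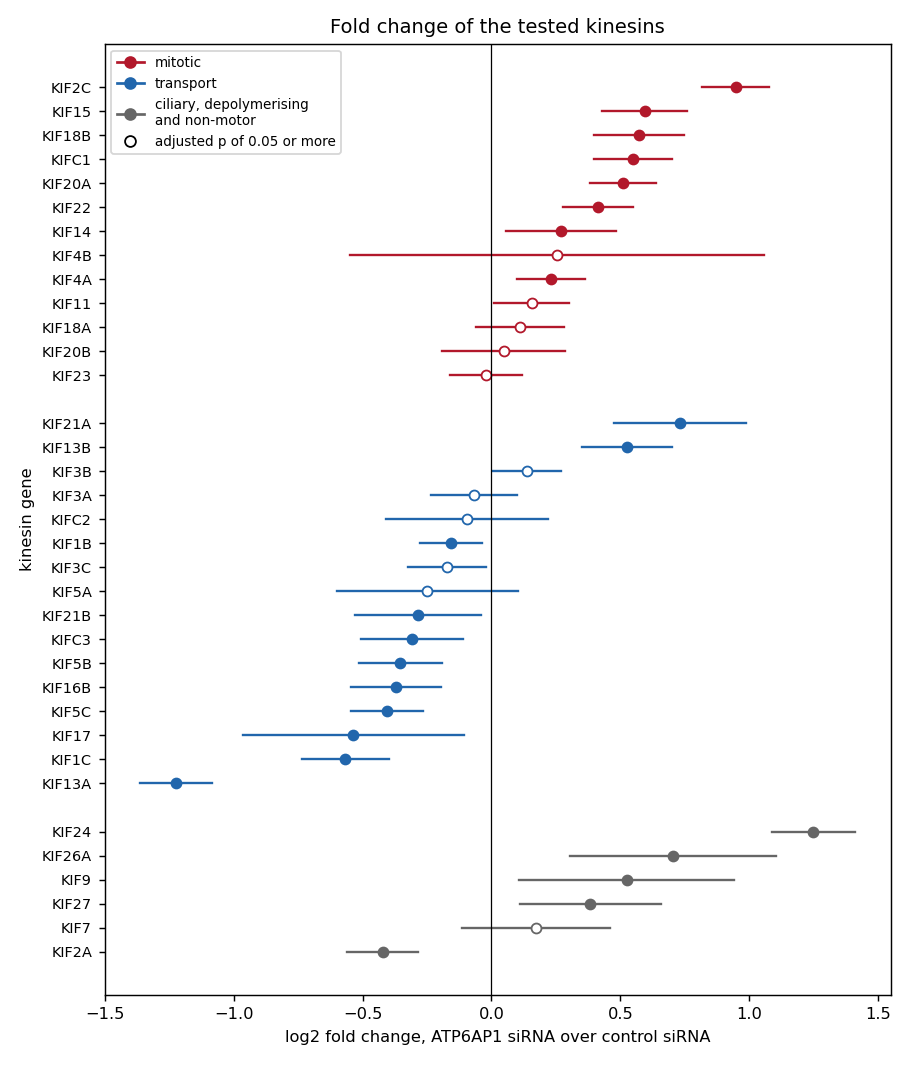
Log2 fold change of the 35 tested kinesins, libraries labelled ATP6AP1 siRNA over control libraries, with 95% confidence intervals from the fit, grouped by role. Filled points passed an adjusted p of 0.05. Most mitotic kinesins lie right of 0, most transport kinesins left of it, with KIF24 at 1.25 and KIF13A at -1.22 at the ends.

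The motors that shape the spindle held the strongest rises among mitotic kinesins. KIF2C (ENSG00000142945, chromosome 1, 44739818 to 44767767 on GRCh38), which pulls subunits off microtubule ends and so frees wrongly attached kinetochores, stood at 329, 327 and 306 CPM in the libraries labelled ATP6AP1 siRNA and at 168, 157 and 174 CPM in the control libraries. The lowest labelled library was far above the highest control, and the means differed 1.93-fold with a 95% confidence interval from 1.76 to 2.11 (log2 fold change 0.95, SE 0.0606, edgeR adjusted p = 7.81e-08). KIFC1, a minus-end-directed motor that focuses spindle poles and gathers surplus centrosomes, had 176, 170.3 and 160.5 CPM in the labelled libraries, against 105, 116 and 125 CPM in the control libraries. It rose 1.46-fold with no overlap (edgeR adjusted p = 2.77e-05); 13.99% of its exon length is overlapped by antisense exons. KIF15, which helps hold the spindle bipolar, had 58.6, 69.2 and 66.4 CPM in the labelled libraries and 45.1, 40.7 and 43.0 CPM in the control libraries, a 1.51-fold rise (edgeR adjusted p = 2.93e-05). KIF11, the motor that pushes the spindle poles apart and the target of several antimitotic drugs, had 135.5, 156 and 159 CPM in the labelled libraries and 136.0, 132 and 136.5 CPM in the control libraries. One labelled library lay within the control range, and KIF11 did not pass (1.11-fold, interval 1.01 to 1.23, edgeR adjusted p = 0.0662), though it did once ATP6AP1 siRNA replicate 1 was left out (adjusted p = 0.00574).

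The related KIF18 motors, which shorten or steady spindle microtubules, gave different values. KIF18B, which acts on the astral microtubules, had 146, 134 and 121 CPM in the labelled libraries against 81.2, 91.1 and 96.5 CPM in the control libraries, 1.49-fold higher with no overlap (edgeR adjusted p = 6.22e-05). KIF18A, which damps the swings of aligned chromosomes, had 32.3, 32.6 and 36.6 CPM in the labelled libraries against 32.1, 29.5 and 32.5 CPM in the control libraries and did not pass (1.08-fold, interval 0.960 to 1.22, edgeR adjusted p = 0.251). The ratio of KIF18A to KIF18B did not overlap between the groups. The chromokinesins, which bind chromosome arms, were both higher. KIF22 had 129.8, 121 and 114 CPM in the labelled libraries and 91.7, 93.3 and 89.6 CPM in the control libraries (1.33-fold, edgeR adjusted p = 0.000118). KIF4A rose less, 1.17-fold, with 116, 121 and 125 CPM in the labelled libraries and 97.5, 102 and 108 CPM in the control libraries (edgeR adjusted p = 0.00623). Its near-copy KIF4B, which shares 13.97% of its 50-base windows with KIF4A, stood at 0.546 to 1.21 CPM in the labelled libraries and 0.535 to 0.913 CPM in the control libraries, and its value is uncertain where reads could not be told apart.

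The kinesins of cytokinesis, the final split of the cell, did not move as a block. KIF20A, which brings the Aurora B complex to the middle of the anaphase spindle, had 251, 254 and 239.9 CPM in the labelled libraries and 169, 168 and 185 CPM in the control libraries, with no overlap (1.43-fold, edgeR adjusted p = 1.12e-05). KIF23, the motor of the centralspindlin complex that marks the cleavage plane, had 199, 216 and 234 CPM in the labelled libraries and 223, 213 and 222 CPM in the control libraries. These values overlapped and KIF23 did not pass (0.986-fold, interval 0.895 to 1.09, edgeR adjusted p = 0.816). KIF14, which recruits citron kinase to the midbody, had 52.1, 54.1 and 64.3 CPM in the labelled libraries and 52.8, 41.2 and 47.6 CPM in the control libraries; it passed (log2 fold change 0.27, edgeR adjusted p = 0.0349) although the groups overlapped. Without ATP6AP1 siRNA replicate 3, control siRNA replicate 2 or control siRNA replicate 3, KIF14 no longer passed (adjusted p = 0.125, 0.15 and 0.0653). KIF20B, also needed late in cytokinesis, ranged from 70.2 to 93.2 CPM in the labelled libraries and from 68.0 to 89.2 CPM in the control libraries and did not pass (edgeR adjusted p = 0.747).

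**Figure D2:**
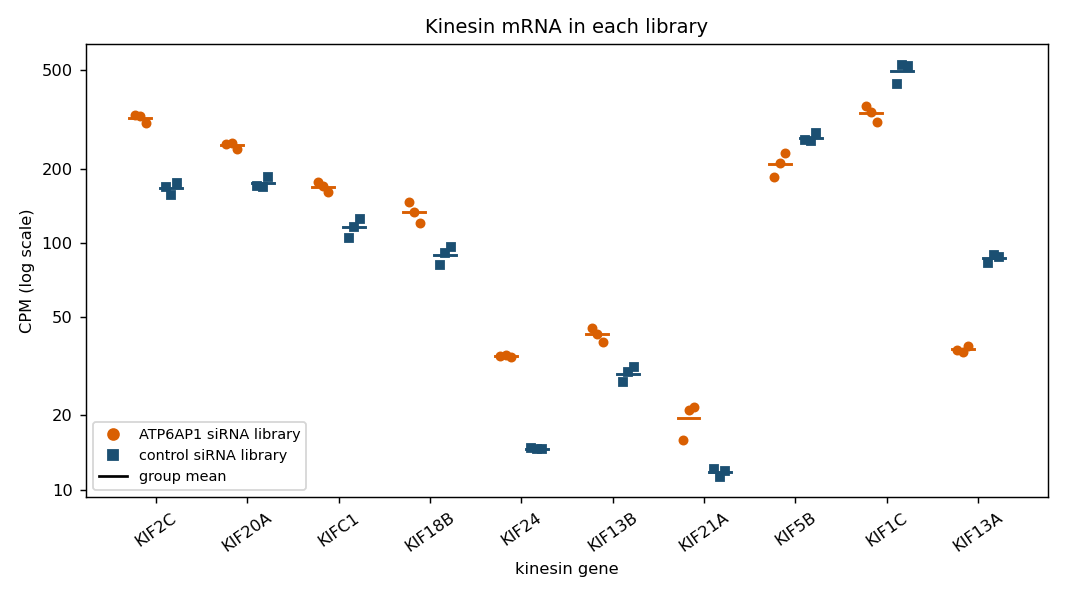
CPM of 10 kinesins in each library on a log axis, libraries labelled ATP6AP1 siRNA left (circles) and control libraries right (squares), with bars at the group means. None of the 10 genes overlaps between groups: KIF2C, KIF20A, KIFC1, KIF18B, KIF24, KIF13B and KIF21A are higher in the labelled libraries, and KIF5B, KIF1C and KIF13A are lower.

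Many genes of mitosis carry a pair of short promoter elements, the CHR, at which the DREAM and MuvB complexes act, and CCAAT boxes, which bind NF-Y. The letters of both were looked for in RefSeq promoter windows (GRCh38.p14, 250 bases before to 50 after each annotated start; 34 of the 42 kinesins had a window, 7 of them more than 1), as TTTGAA or TTCGAA for the CHR and CCAAT for the box, on both strands. TTCGAA reads the same on both strands, and a CHR match may share end letters with a CCAAT match. Both were found in 10 of 14 mitotic kinesin genes (71.4%), 1 of 12 transport genes (8.33%) and 1 of 8 others (12.5%), and in 7.85% of all 27305 genes with a window. The CHR letters alone were in 11, 1 and 1 of these and in 19.5% of all genes, and the box in 11, 4 and 3 and in 39.7% of all. The 14 mitotic genes here include KIF2B, whose mRNA was not analysed. Shown here are up to 100 bases before the start, ending before any annotated exon, of mitotic kinesins that rose (KIF2C, KIF20A, KIF4A, KIFC1) or did not pass (KIF11), and of the members at either end of the fold changes (KIF24, KIF13A). Capitals mark CHR letters (TTTGAA or TTCAAA) and CCAAT boxes (here read as ATTGG).
KIF2C (chr1:44739737-44739817, plus strand): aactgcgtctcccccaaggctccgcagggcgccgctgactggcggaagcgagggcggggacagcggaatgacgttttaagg
KIF20A (chr5:138179012-138179111, plus strand): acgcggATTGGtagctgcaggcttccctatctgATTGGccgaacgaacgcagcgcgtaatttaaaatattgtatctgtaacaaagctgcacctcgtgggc
KIF4A (chrX:70290004-70290103, plus strand): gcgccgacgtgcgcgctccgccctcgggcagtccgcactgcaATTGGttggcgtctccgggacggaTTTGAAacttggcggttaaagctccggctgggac
KIFC1 (chr6:33391723-33391822, plus strand): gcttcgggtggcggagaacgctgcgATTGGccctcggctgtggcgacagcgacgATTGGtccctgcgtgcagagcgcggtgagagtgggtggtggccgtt
KIF11 (chr10:92593030-92593129, plus strand): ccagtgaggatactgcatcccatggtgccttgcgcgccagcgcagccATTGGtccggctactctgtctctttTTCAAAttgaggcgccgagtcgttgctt
KIF24 (chr9:34329269-34329368, minus strand): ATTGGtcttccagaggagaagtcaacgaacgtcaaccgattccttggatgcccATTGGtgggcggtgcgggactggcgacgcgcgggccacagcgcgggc
KIF13A (chr6:17987636-17987735, minus strand): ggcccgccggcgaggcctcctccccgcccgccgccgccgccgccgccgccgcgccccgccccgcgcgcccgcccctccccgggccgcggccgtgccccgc

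Among mitotic kinesins, those with the letters and those that rose were not the same set. KIF2C, the mitotic member that rose most, held neither in its window. KIF20A and KIFC1 each held a pair of CCAAT boxes before the start (KIFC1 with CHR letters 5 bases after it). All tested mitotic members that did not pass (KIF11, KIF18A, KIF20B, KIF23 and KIF4B) held both. Among those that rose, KIF14, KIF18B, KIF22, KIF4A and KIFC1 held both, KIF15 only the CHR letters and KIF20A only the box. Outside the mitotic list, KIF24 held both as well, with its CHR letters 2 bases after the start and so past the stretch shown. A match is a stretch of letters and not a measured binding site, and RefSeq starts can differ from the start used in LX-2 cells.

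Among transport kinesins, KIF13A fell most. KIF13A (ENSG00000137177, chromosome 6, 17759183 to 17987635) carries the mannose 6-phosphate receptor and recycling endosomes toward the cell surface. It stood at 36.9, 36.0 and 38.3 CPM in the libraries labelled ATP6AP1 siRNA and at 82.8, 88.9 and 87.9 CPM in the control libraries, with the groups far apart. It was 2.33-fold lower (log2 fold change -1.22, SE 0.0645, edgeR adjusted p = 1.70e-08), and -0.84 once the trend of fold change on gene span had been removed (range over all alternatives -1.25 to -0.84). Its closest relative KIF13B (ENSG00000197892), which moves the scaffold protein DLG1, went the other way, with 45.3, 42.7 and 39.6 CPM in the labelled libraries and 27.2, 30.0 and 31.4 CPM in the control libraries (1.44-fold higher, edgeR adjusted p = 0.000120).

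Conventional kinesin, the main plus-end motor for mitochondria and lysosomes, was lower in 2 of its 3 tested heavy chains. KIF5B, the ubiquitous heavy chain, had 185, 209.7 and 230.3 CPM in the labelled libraries and 261, 259 and 279 CPM in the control libraries (1.28-fold lower, edgeR adjusted p = 0.00138). KIF5C, known best from neurons, had 63.7, 71.2 and 72.2 CPM in the labelled libraries and 90.9, 91.4 and 92.1 CPM in the control libraries (log2 fold change -0.41, edgeR adjusted p = 0.000170); this shrank to -0.15 with the span trend removed (adjusted p = 0.0477). The groups did not overlap in either gene. KIF5A was low, at 3.92 to 5.03 CPM in the labelled libraries and 4.75 to 5.85 CPM in the control libraries, and did not pass (edgeR adjusted p = 0.218).

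KIF1C (ENSG00000129250, chromosome 17, 4997950 to 5028401), which carries integrin-bearing vesicles and dense-core vesicles, was the most abundant kinesin of the control libraries per exon length. It had 359, 338 and 308 CPM in the labelled libraries and 440, 528 and 521 CPM in the control libraries, 1.48-fold lower with no overlap (edgeR adjusted p = 4.76e-05). Its relative KIF1B, a carrier of mitochondria and synaptic vesicle precursors, had 98.4, 100.3 and 101 CPM in the labelled libraries and 109, 113 and 113 CPM in the control libraries. The KIF1B groups did not overlap and the gene passed by a small margin (log2 fold change -0.16, edgeR adjusted p = 0.0302), but its value turned to 0.14 with the span trend removed and to 0.046 with the trends on transcript length and GC content removed. The endosome carrier KIF16B, the tested kinesin gene with the longest span at 301 kb, had 17.2, 18.2 and 17.5 CPM in the labelled libraries and 22.2, 22.2 and 24.0 CPM in the control libraries. Its log2 fold change of -0.37 (edgeR adjusted p = 0.00187) likewise turned to 0.10 with the span trend removed (adjusted p = 0.303).

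The remaining transport kinesins were raised in 1 gene, lowered in 3 and not past the test in 4. KIF21A, which restrains microtubule growth at the cell edge, had 15.9, 21.1 and 21.6 CPM in the labelled libraries and 12.1, 11.3 and 11.9 CPM in the control libraries (1.66-fold higher, edgeR adjusted p = 0.000190). Its relative KIF21B had 13.4, 11.95 and 10.5 CPM in the labelled libraries and 13.6, 14.01 and 16.0 CPM in the control libraries, and was only just past the threshold (log2 fold change -0.28, edgeR adjusted p = 0.0492); it missed it under 15 of 17 alternatives, DESeq2 and limma-voom among them. KIFC3, a minus-end motor of epithelial junctions and the Golgi, had 169, 147 and 126 CPM in the labelled libraries and 169, 189.8 and 189 CPM in the control libraries, lower by the test (log2 fold change -0.31, edgeR adjusted p = 0.0119) although the groups overlapped. KIF17, a motor of cilia and dendrites, had 2.48, 2.11 and 2.47 CPM in the labelled libraries and 3.59, 2.90 and 3.80 CPM in the control libraries (log2 fold change -0.54, edgeR adjusted p = 0.0368). The calls of these last 3 and of KIF1B were lost with single libraries left out: KIF21B without any library other than ATP6AP1 siRNA replicate 1 (adjusted p = 0.069 to 0.232), KIF17 without any other than control siRNA replicate 2 (0.0522 to 0.132), KIF1B without any other than ATP6AP1 siRNA replicate 3 (0.0549 to 0.122), and KIFC3 without control siRNA replicate 2 (0.0738) or control siRNA replicate 3 (0.0692). Without control siRNA replicate 3, 5 transport kinesins were lower in place of 9.

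The subunits of the heterotrimeric motor that serves cilia and endosomes did not pass. KIF3A had 45.6 to 54.8 CPM in the labelled libraries and 51.3 to 54.7 CPM in the control libraries (edgeR adjusted p = 0.482). KIF3B had 89.1, 88.2 and 97.1 CPM in the labelled libraries and 84.4, 81.6 and 83.7 CPM in the control libraries, without overlap (1.10-fold, interval 1.00 to 1.21, adjusted p = 0.0777), and KIF3C had 55.0 to 59.3 CPM in the labelled libraries and 60.5 to 69.6 CPM in the control libraries, also without overlap (adjusted p = 0.052). KIF3C passed toward lower without ATP6AP1 siRNA replicate 1 (adjusted p = 0.0469) or control siRNA replicate 1 (0.0481). KIFC2 had 15.5 to 26.1 CPM in the labelled libraries and 20.4 to 22.5 CPM in the control libraries (adjusted p = 0.612; 0.0399, toward lower, without ATP6AP1 siRNA replicate 1).

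Among the ciliary, depolymerising and non-motor kinesins, 4 of 6 tested members rose and 1 fell, where 26.7% of all tested genes were raised and 26.6% lowered. With DESeq2 the raised members were 2, without KIF9 and KIF27. KIF24 (ENSG00000186638, chromosome 9, 34252380 to 34329268), a centriolar depolymerase that holds back the growth of the primary cilium in cycling cells, rose most of all kinesins tested. It had 34.8, 35.1 and 34.6 CPM in the libraries labelled ATP6AP1 siRNA and 14.7, 14.6 and 14.6 CPM in the control libraries, nearly equal within each group and far apart between them. The rise was 2.38-fold with an interval from 2.13 to 2.66 (log2 fold change 1.25, SE 0.0749, edgeR adjusted p = 4.81e-08). KIF2A, a depolymerase like KIF2C that also acts outside mitosis, had 91.1, 100.3 and 103 CPM in the labelled libraries and 136, 132.0 and 127 CPM in the control libraries, 1.34-fold lower with no overlap (edgeR adjusted p = 0.000107). Antisense exons of other genes, mainly DIMT1, cover 18.7% of its exon length, and no source used here gives the strand setting of the counting, so such reads cannot be told apart.

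KIF26A, a kinesin without motor activity that restrains GDNF signalling in mouse neurons, had 23.0, 21.9 and 14.6 CPM in the labelled libraries and 8.71, 14.6 and 13.0 CPM in the control libraries. Its lowest labelled and highest control libraries nearly met, at 1.63-fold overall (interval 1.23 to 2.15, edgeR adjusted p = 0.00603). KIF27, a relative of the hedgehog regulator KIF7, had 8.35, 7.89 and 9.47 CPM in the labelled libraries and 6.59, 6.33 and 6.82 CPM in the control libraries (edgeR adjusted p = 0.0208), and lost its call without ATP6AP1 siRNA replicate 3 (0.0775) or control siRNA replicate 2 (0.064); 18.9% of its 50-base windows occur in other transcripts, mainly an unprocessed pseudogene. KIF9, a motor of motile cilia, had 3.15, 3.20 and 2.95 CPM in the labelled libraries and 2.24, 2.20 and 2.02 CPM in the control libraries (edgeR adjusted p = 0.0357, and 0.0539 to 0.0966 with any single library left out); its antisense partner KIF9-AS1 overlaps its exons. KIF7 itself, which organises the tip of the primary cilium, had 36.4, 35.3 and 28.0 CPM in the labelled libraries and 23.1, 30.7 and 34.5 CPM in the control libraries, which overlapped, and did not pass (edgeR adjusted p = 0.292).

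Levels were compared between kinesins as CPM per kb of exon. In the libraries labelled ATP6AP1 siRNA the highest were KIF2C at 87.9, KIF20A at 64.5, KIFC1 at 55.7 and KIF1C at 39.0 CPM per kb. In the control libraries KIF1C led at 57.8, followed by KIF2C at 45.6, KIF5B at 45.4 and KIF20A at 45.2 CPM per kb, the last 3 of which did not differ beyond their spread. Summed over members, mitotic kinesins came to 379, 386 and 377 CPM per kb in the labelled libraries and 272, 267 and 288 CPM per kb in the control libraries. Transport kinesins summed to 148, 146 and 145 CPM per kb in the labelled libraries and to 174, 187 and 191 CPM per kb in the control libraries. The ratio of mitotic to transport kinesins was thus 2.57, 2.64 and 2.59 in the labelled libraries and 1.56, 1.43 and 1.50 in the control libraries, a ratio that the scaling of the libraries cannot alter. Its level depends on the division by exon length. From CPM alone the ratio was 1.38, 1.43 and 1.44 in the labelled libraries and 0.887, 0.795 and 0.840 in the control libraries. In bulk RNA, more cells in mitosis and more of these mRNAs per cell cannot be told apart.

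**Figure D3:**
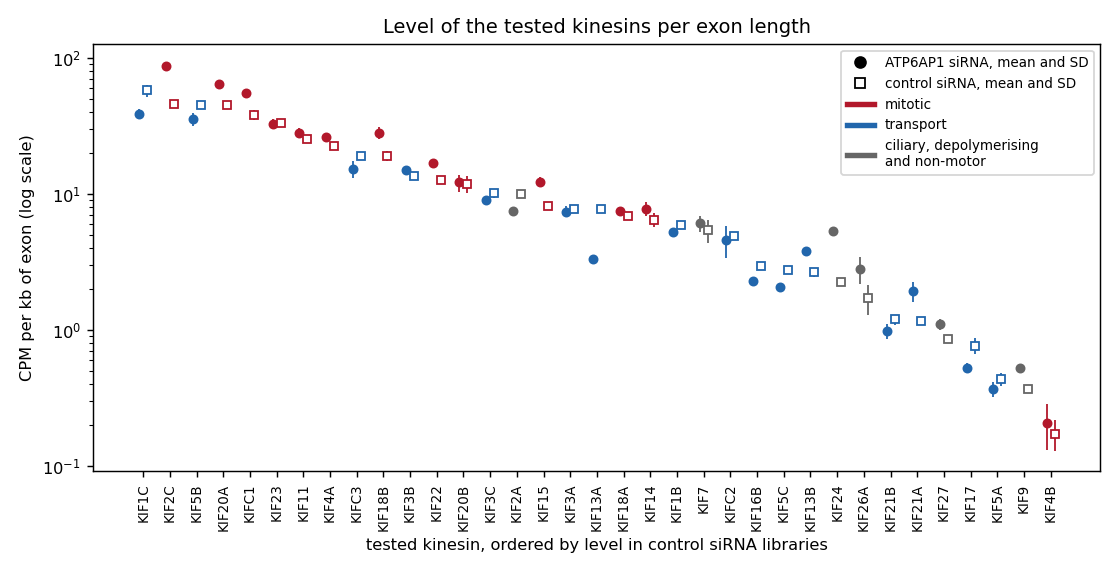
CPM per kb of exon on a log axis for the 35 tested kinesins, ordered by their level in the control libraries. Circles are means of the libraries labelled ATP6AP1 siRNA and squares of the control libraries, with SD (n = 3 each). KIF1C leads the control libraries at 57.8 and KIF2C the labelled ones at 87.9 CPM per kb.

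Kinesins that share a number, or the KIFC name, gave 16 pairs with both members tested. In 4 of them both members were called and in opposite directions (KIF13A and KIF13B, KIF2A and KIF2C, KIF21A and KIF21B, KIFC1 and KIFC3). The calls of KIF21B and KIFC3 were not stable. KIF21B missed the threshold under 15 of 17 alternatives. KIFC3 missed it under 5, among them library size alone (edgeR adjusted p = 0.14) and the span trend removed (0.206). The ratio of KIF13A to KIF13B was 0.813, 0.843 and 0.968 in the libraries labelled ATP6AP1 siRNA and 3.04, 2.97 and 2.80 in the control libraries, and KIF13B was the higher per exon length in the labelled libraries, at 3.83 against 3.33 CPM per kb. The ratio of KIF2A to KIF2C was 0.277, 0.307 and 0.337 in the labelled libraries and 0.808, 0.843 and 0.728 in the control libraries. KIF5B to KIF5C, in contrast, stayed at 2.91, 2.94 and 3.19 in the labelled libraries and 2.87, 2.84 and 3.03 in the control libraries. The ratio did not overlap between groups in 10 of the 16 pairs, close to the 59.5% of single tested genes whose groups did not overlap. In the 4 pairs called in opposite directions, the separate ratios restate those calls.

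**Figure D4:**
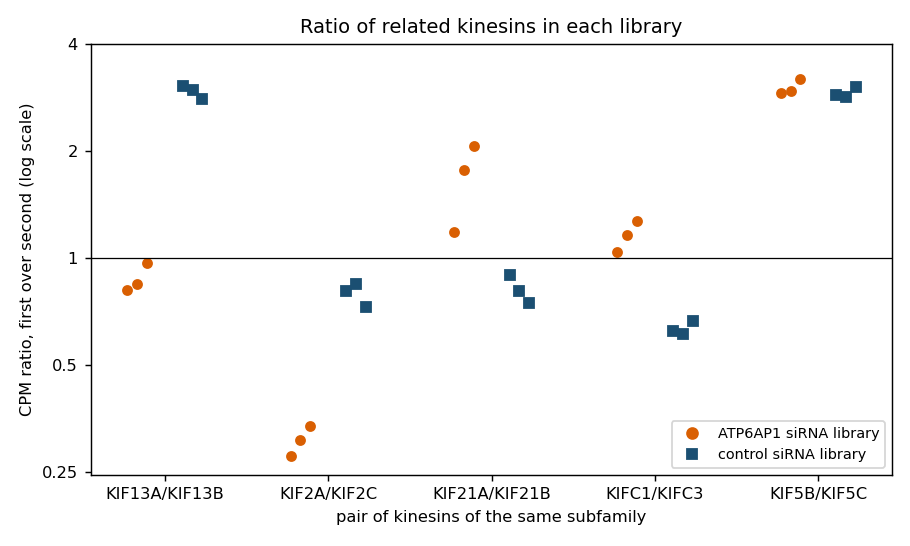
Ratio of CPM, first over second gene, for 5 pairs of related kinesins in each library on a log axis, libraries labelled ATP6AP1 siRNA left (circles) and control libraries right (squares). The first 4 pairs are those whose members were called in opposite directions, which fixes that their ratios differ by group; KIF5B over KIF5C, both lowered, overlaps.

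The partners of the motors were examined in lists. Of 20 partners of mitotic kinesins, 12 rose, 2 fell (PRC1, the midzone crosslinker, and ECT2, the exchange factor of cytokinesis) and 6 did not pass, with a median log2 fold change of 0.21, where 26.7% of all tested genes were raised and 26.6% lowered. The PRC1 value is uncertain, because 63.9% of its 50-base windows also occur in an overlapping gene. The same holds for NUSAP1, which is among the raised partners, with 92.9% of its windows in an overlapping gene. CENPE, also among the raised, is itself a mitotic kinesin that the rule on symbols left out of the members. Its groups overlapped (log2 fold change 0.31, edgeR adjusted p = 0.0437). AURKB, the Aurora kinase that restrains KIF2C at centromeres and works with KIF20A, averaged 115 ± 2.08 CPM in the libraries labelled ATP6AP1 siRNA and 66.5 ± 2.30 CPM in the control libraries (SD, n = 3 in either group), a log2 difference of 0.78 with edgeR adjusted p = 2.76e-07. Its scaffold INCENP rose by 0.61 on the log2 scale (adjusted p = 4.78e-06), GTSE1, an inhibitor of KIF2C, by 0.55 (9.74e-06) and AURKA by 0.49 (1.07e-05).

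Kinesin light chains and cargo adaptors were changed at about the rate of all genes (26.7% raised, 26.6% lowered): of 28 tested, 9 rose (32.1%) and 8 fell (28.6%), with a median of -0.040 that was 0.097 with library size alone. HAP1, which links KIF5 motors to vesicles, rose by 3.08 on the log2 scale, with means of 26.8 CPM in the labelled libraries and 3.16 CPM in the control libraries (edgeR adjusted p = 7.48e-10). BORCS7, a subunit of the complex that couples lysosomes to kinesins, rose by 0.66 (adjusted p = 4.58e-06), a value to be read with care because 16.7% of its 50-base windows occur in other transcripts. DENND5B, a Rab exchange factor, fell by 0.90 (adjusted p = 3.49e-07) and TRAK2, a mitochondrial adaptor of KIF5, by 0.59 (2.19e-06). Dynein is the motor that runs the opposite way, and of 23 tested genes of cytoplasmic dynein and dynactin 2 rose (8.7%) and 10 fell (43.5%), against 26.7% and 26.6% of all genes, with a median of -0.14 that was 0.0014 with library size alone. The capping subunits CAPZB and CAPZA1 fell by 0.61 and 0.46 (edgeR adjusted p = 3.20e-06 and 1.87e-05), while the light chain DYNLL2 and the dynactin subunit DCTN4 rose by 0.65 and 0.59 (2.07e-05 and 2.17e-05).

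Gene span moved with fold change in these libraries. Among all tested protein-coding genes split into 10 equal bins of span, the bin with the longest spans had a median log2 fold change of -0.40 (92 raised and 773 lowered), and the bin around 13.8 kb one of 0.14. Transport kinesin genes spanned a median of 56.8 kb and mitotic ones 34.2 kb, against 30.8 kb over all tested genes, protein-coding or not. Among protein-coding genes alone, bins 5 and 6 of the 10 had median spans of 28.8 and 40.2 kb, with the mitotic median between them. Of the transport genes, 4 (KIF1B, KIF13A, KIF13B and KIF16B) lay in the longest bin. With the trend on span removed in each library, 10 mitotic kinesins rose and 0 fell, with a median of 0.34. Among the 16 tested transport kinesins 4 rose and 5 fell, with a median of -0.15. Over all 15372 tested genes, 4520 were raised and 3469 lowered in that fit. KIF2A, listed apart from the mitotic kinesins, was lowered there too (log2 fold change -0.33, edgeR adjusted p = 0.000463). The opposite directions of KIF13A and KIF13B, which span 228 and 196 kb, were present in both fits, at -0.84 and 0.87 with the trend removed.

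**Figure D5:**
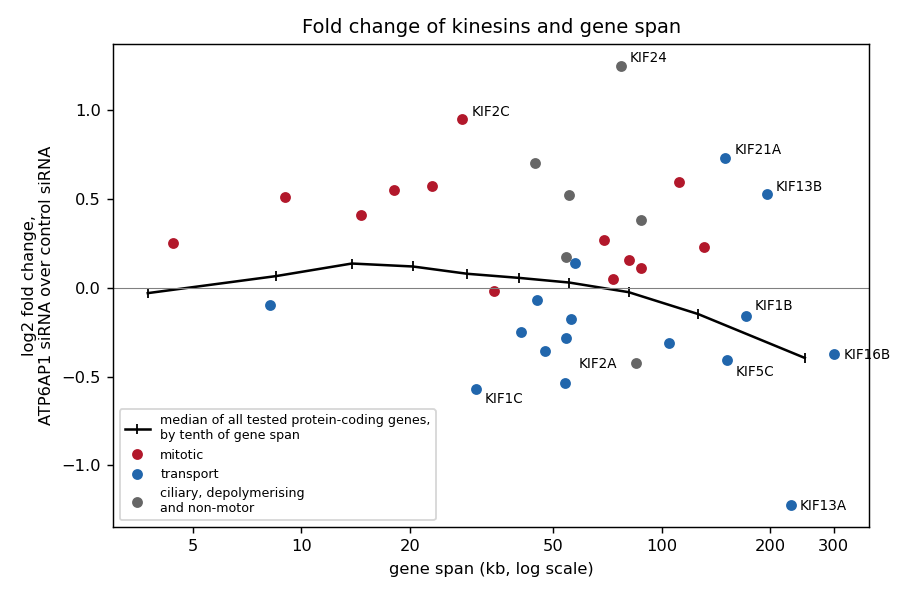
Log2 fold change of the 35 tested kinesins against gene span in kb on a log axis, with the median of all tested protein-coding genes in each of 10 bins of span as a line. The line reaches -0.40 in the longest bin; KIF13A lies below it at -1.22, and KIF13B and KIF21A lie above it at 0.53 and 0.73.

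Of the 24 kinesins called, 16 were called in the same direction under each of the 17 alternatives that tested them. These were 7 mitotic kinesins, all raised (KIF2C, KIF15, KIF18B, KIFC1, KIF20A, KIF22 and KIF4A), 6 transport kinesins (KIF21A and KIF13B raised; KIF13A, KIF1C, KIF5B and KIF5C lowered) and 3 others (KIF24 and KIF26A raised, KIF2A lowered).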

How the data were processed

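Poly(A) RNA was sequenced as paired-end libraries, per the labels' protocols. The authors deposited 1 table of estimated counts per Ensembl gene, raw and not scaled to depth; 12.3 to 13.9% of values per library were not whole. Per the submitters' processing notes, the tools were FastQC and Trimmomatic, HISAT2 with featureCounts, and DESeq2, on build GRCh38 (hg38), with no versions. No source used here says how strand and multiply mapped reads were handled.

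Groups and replicate numbers came from the sample titles, and symbols and coordinates from GENCODE release 44 (GRCh38). Counts were rounded, filtered with filterByExpr (15372 genes) and tested in R 4.3.3 with edgeR 4.0.16, by its quasi-likelihood F test, which is two-sided (TMM factors, group as the only term, Benjamini-Hochberg adjustment over all tested genes, threshold 0.05). CPM are normalised with the TMM factors, and CPM per kb divides them by the union of exons. Fold change intervals are 95% intervals of the fit. Role lists were written from known functions, with earlier results of these data known, as were the members, so lists are described by counts and medians with no test. Values by library are given for members past the threshold with an absolute log2 fold change of at least 0.5 and for the 5 most abundant of each role list, with further members added where a relative is described, and each partner list is represented by its 4 members with the lowest adjusted p. PRC1 and ECT2 are named beyond that rule as the only lowered partners, after their values were seen. NUSAP1 is named beyond it for its shared windows, and CENPE because it is a kinesin.

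As alternatives, edgeR was run with the size factors of DESeq2, without composition factors, without a filter and with a filter of 5 CPM in 3 libraries, and the others were DESeq2 1.42.0, limma-voom (limma 3.58.1), the replicate number as a block, each library left out, an adjusted p of 0.01, unrounded values, and removal of each library's loess trend, either on gene span or on both GC and transcript length. The pair ratios printed are CPM over CPM within a library, and pairs were chosen by name after the data were seen. Log2 ratios, with 0.5 CPM added to each gene, were also compared by a permutation test. With 3 against 3 libraries its lowest possible p is 0.1, so no pair could pass and nothing is concluded from it. Steps were tested on simulated data.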

Additional observations from a re-analysis of the deposited data

How the results depend on the processing

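The direction of each role list's median was kept under the 17 alternatives, while the number of calls was not. With library size alone, the medians were 0.41 (mitotic), -0.13 (transport), 0.59 (ciliary, depolymerising and non-motor), 0.27 (all kinesins), 0.34 (mitotic partners), 0.097 (light chains and adaptors), 0.0014 (dynein and dynactin) and 0.13 (all genes), with 5 transport kinesins, 6 kinesins in all and 1 mitotic partner lowered and 4 raised and 5 lowered of dynein and dynactin. KIF3A, KIF23 and KIFC2, which were not called in either, then stood at 0.069, 0.12 and 0.044. With the span trend removed, the medians were 0.34 (mitotic), -0.15 (transport), 0.51 (ciliary and others), 0.18 (all kinesins), 0.059 (adaptors) and 0.044 (all genes), with 4 transport kinesins raised, 5 lowered and 6 kinesins lowered in all. Over all genes, 4520 were raised and 3469 lowered in that fit. KIF1B and KIF16B turned to 0.14 (adjusted p = 0.0452) and 0.10. With the trends on transcript length and GC removed, the medians were -0.18 (transport), 0.41 (ciliary and others), 0.076 (all kinesins), 0.17 (mitotic partners) and -0.19 (dynein and dynactin), KIF1B was at 0.046 and KIF20B at -0.069. With 5 CPM in 3 libraries, the mitotic median was 0.35 and that of the ciliary and other kinesins 0.39, since low members were not tested. No filter moved the medians of dynein and dynactin to -0.11 and of all genes to 0.033. DESeq2 gave -0.11 and 0.034 for these and 2 ciliary and other kinesins raised. At an adjusted p of 0.01, 5 transport kinesins and 6 kinesins in all were lowered, and 2 ciliary and other kinesins and 7 mitotic partners raised.

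With each library left out in turn, the mitotic median ran from 0.21 to 0.42, the transport median from -0.32 to -0.19, that of all kinesins from 0.091 to 0.16, of the mitotic partners from 0.18 to 0.24, of the adaptors from -0.053 to 0.012, of dynein and dynactin from -0.15 to -0.098 and of all genes from -0.0078 to 0.016. Lowered transport kinesins ran from 5 to 9, lowered kinesins from 6 to 10 and raised ciliary and other kinesins from 2 to 3. Genes near 0 and not called with all libraries changed sign: KIF23 from -0.081 to 0.037, KIF20B from -0.056 to 0.16, KIF3A from -0.13 to 0.0055 and KIFC2 from -0.31 to 0.077. At -0.31, without ATP6AP1 siRNA replicate 1, KIFC2 was called lower (edgeR adjusted p = 0.0399). Where no cause is named above, the cause was not tested.

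The replicate numbers did not pair the libraries (correlations of deviations -0.088, -0.029 and -0.10). With the replicate block, 13 kinesins rose and 7 fell, against 14 and 10. At these depths KIF4B, KIF17 and KIF9, all under 5 CPM, had the largest SEs among tested kinesins (0.372, 0.199 and 0.193), followed by KIF26A (0.185).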
